A study of Saccharomyces cerevisiae with 6 samples.

Results

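ER-associated degradation is the route by which yeast cells remove misfolded or surplus proteins of the endoplasmic reticulum (ER). The genes described here are 9 genes of its machinery and ULI1, a gene of the ER stress response. Members were taken from a list of 10 genes by gene name, and each had 1 probe set on the array that was assigned to 1 S. cerevisiae gene, 10 of the 5449 genes that could be named. The list was drawn up with earlier results of these data known. RNA came from wild-type Saccharomyces cerevisiae in mid-log phase, with no strain background stated in the labels. A control group of 3 cultures was kept for 3 h with the solvent DMSO at 0.1%. Another 3 cultures were kept for 3 h with OGT2468 at 0.1 µM, a compound for which the labels give a code name alone. For these OGT2468 cultures the labels state no DMSO level. The design text describes the samples as biological, and each was put on its own Affymetrix array.

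In this pathway a misfolded protein is recognised in the ER, passed back through the membrane to the cytosol, marked with ubiquitin by a membrane-embedded ligase, pulled out by the ATPase Cdc48 and destroyed by the proteasome. Yeast has 2 main ligases for it, Hrd1, which serves lumenal and membrane proteins, and Doa10, encoded by SSM4, which serves proteins with a cytosolic lesion. When unfolded proteins gather in the ER, the sensor Ire1 splices the HAC1 messenger, and the Hac1 protein made from it activates many genes of ER folding and degradation.

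The arrays differed in brightness. Over the S. cerevisiae probe sets the median lay between 785.6 and 1150.2 in the DMSO group and between 690.7 and 842.4 in the OGT2468 group (p = 0.2 by an exact two-sided permutation test, which can give no p below 0.1). The arrays were therefore brought to 1 common distribution before testing, and levels below are normalized intensities. Changes are differences of log2(intensity + 16), OGT2468 minus DMSO, which understate the change of dim genes. Background was exceeded by 95.6% to 97.1% of the S. cerevisiae probe sets, depending on the array, and by all 10 members on all 6 arrays. Since the cultures were measured in bulk, fewer cells carrying a transcript and less of it per cell cannot be told apart.

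After 3 h in OGT2468, 2 of the 10 members rose and none fell at a limma adjusted p under 0.05. These were ULI1, 2.64-fold, and DFM1, 1.46-fold. Among all named genes 2.72% rose and 1.1% fell by the same test (1.83% and 0.758% of all 8968 probe sets tested). The median log2 change of the 10 members was 0.27, against -0.02 over all named genes. On 8 members all 3 OGT2468 arrays were above all 3 DMSO arrays, a pattern seen in 15.5% of named genes, and 7 members had an unadjusted p under 0.05 with a positive change, against 10.9% of named genes (10.1% had one with a negative change, and no member did). The DFM1 call was lost in all 6 fits that left out 1 array (adjusted p between 0.0658 and 0.113). With 5498 probe sets in place of 8968 tested, those with 1 S. cerevisiae gene, 6 members rose, the further ones being DER1 (limma adjusted p = 0.0118), UBC7 (0.0193), HRD1 (0.0230) and HRD3 (0.0304). In that setting more was called throughout, and 314 of the 5498 probe sets rose and 212 fell, against 164 and 68 of 8968 in the main setting. With no scaling between arrays 1 member rose, ULI1, while 22 of the 8968 probe sets rose and 44 fell.

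**Figure D1:**
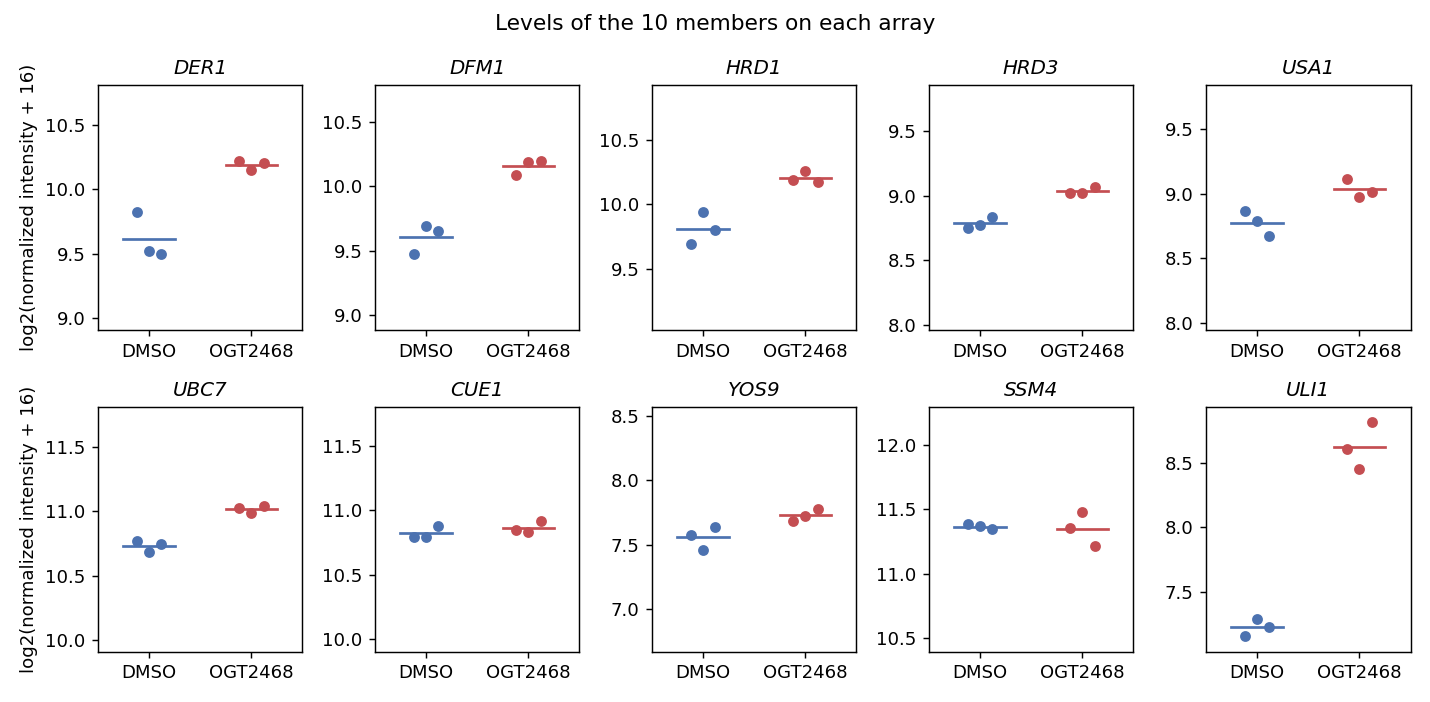
Level of each member on each array, as log2(normalized intensity + 16), with 3 DMSO arrays (blue) and 3 OGT2468 arrays (red) per panel and a line at each group mean. Every panel spans the same number of log2 units. The groups are apart in 8 panels and overlap for CUE1 and SSM4.

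The Hrd1 complex joins the ligase to proteins that select and move its substrates. DER1 encodes a membrane protein that forms part of the channel through which lumenal substrates leave the ER. Its normalized intensity was 887.5, 717.1 and 707.9 in DMSO and 1173, 1120.6 and 1158.9 in OGT2468. The OGT2468 arrays lay close together and above all DMSO arrays, among which replicate 1 was the highest. The log2 change of DER1 was 0.58 ± 0.10 (SE, n = 3 per group), and its limma adjusted p of 0.0501 fell just short of the threshold. Of the 6 fits without 1 array, 1 called it, the one without DMSO replicate 1 (0.68; adjusted p = 0.0323), and over all 6 the change lay between 0.52 and 0.68 and the adjusted p between 0.0323 and 0.158. With no scaling the change was 0.31.

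HRD1 encodes the ubiquitin ligase itself, a RING-type enzyme in the ER membrane. It stood at 811.8, 969.5 and 875.3 in DMSO and at 1149.4, 1210.2 and 1140.2 in OGT2468, in normalized intensity. The groups did not overlap, and the DMSO arrays were the more scattered. The log2 change was 0.39 ± 0.08 (SE, n = 3 per group; 95% interval 0.19 to 0.60), and HRD1 did not pass over all probe sets (limma adjusted p = 0.0813). With no scaling its change was 0.12.

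HRD3, whose product binds Hrd1 and receives substrates on the lumenal side, had normalized intensities of 414, 422 and 441.8 in DMSO and 503.9, 505.3 and 522.3 in OGT2468. USA1, the scaffold that links Der1 to Hrd1, had 450.2, 426.7 and 392.4 in DMSO and 538.2, 487.9 and 501.4 in OGT2468. In both genes the groups were apart by a small step. The log2 change of HRD3 was 0.25 ± 0.06 (SE, n = 3 per group; limma adjusted p = 0.104) and that of USA1 was 0.26 ± 0.08 (SE, n = 3 per group; limma adjusted p = 0.171). With no scaling these changes were 0.0008 and 0.0033.

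YOS9, the gene with the smallest change in this complex, encodes a lectin of the ER lumen that reads the trimmed sugar on misfolded glycoproteins. Its levels were 175, 160.3 and 183.1 in DMSO and 189.2, 195.2 and 203.4 in OGT2468 (normalized intensity). The lowest OGT2468 array exceeded the highest DMSO array by little. Its log2 change of 0.17 ± 0.07 (SE, n = 3 per group) did not pass, the 95% interval ran from -0.01 to 0.34, and with no scaling the change was -0.11. None of the 5 measured Hrd1 complex genes passed over all 8968 probe sets, a test by which 2.72% of named genes rose. Their log2 changes ran from 0.17 to 0.58, with a median of 0.26. With only the 5498 probe sets of 1 S. cerevisiae gene, DER1, HRD1 and HRD3 passed, and USA1 and YOS9 did not.

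DFM1 encodes a homolog of Der1 that acts in the removal of membrane proteins. Its normalized intensity was 696.8, 810.7 and 790.3 in DMSO and 1070.8, 1148.2 and 1155.7 in OGT2468. All OGT2468 arrays were above all DMSO arrays. DFM1 rose by 0.55 ± 0.08 on the log2 scale (SE, n = 3 per group; limma adjusted p = 0.0286), with a 95% interval of 0.35 to 0.74. Among other settings, the call was also lost with each array's median subtracted (adjusted p = 0.0714), with a pseudocount of 1 (0.0565), with no scaling (0.456) and with scaling on the spiked hybridization controls (0.204). The change of DER1 minus that of DFM1, taken within each array, was 0.03 on the log2 scale (exact two-sided permutation test, p = 1), and it lay between -0.06 and 0.20 over the 16 alternatives tried.

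SSM4 encodes Doa10, the other ligase. Its normalized intensity was 2654.9, 2631.2 and 2583.2 in DMSO and 2600, 2838.7 and 2355 in OGT2468. The OGT2468 arrays spread to both sides of the closely grouped DMSO arrays. The log2 change was -0.02 ± 0.08 (SE, n = 3 per group; limma adjusted p = 0.941), and the 95% interval of -0.22 to 0.18 leaves room for a small change either way. The change of HRD1 exceeded that of SSM4 by 0.41 on the log2 scale within arrays. This difference was 0.00 ± 0.13 in DMSO and 0.41 ± 0.09 in OGT2468 (SD, n = 3), centred on the DMSO mean, with no overlap. The exact two-sided permutation test gave p = 0.1, the smallest that 3 against 3 arrays can give, and 0.2 after Benjamini-Hochberg adjustment over the 4 pairs compared. A factor common to a whole array nearly cancels in such a difference, but quantile normalization does not. With no scaling the HRD1 minus SSM4 difference was 0.44, and over the 16 alternatives tried it lay between 0.34 and 0.48.

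UBC7 and CUE1 serve both ligases: Ubc7 is the ubiquitin-conjugating enzyme, and Cue1 is the membrane protein that recruits and activates it. UBC7 had normalized intensities of 1724.5, 1623.3 and 1697.1 in DMSO and 2064, 2011.6 and 2089.4 in OGT2468. CUE1 had 1756.4, 1760.1 and 1865 in DMSO and 1825.4, 1809.3 and 1912.4 in OGT2468. The groups were clearly apart for UBC7 and overlapped for CUE1. The log2 change of UBC7 was 0.29 ± 0.06 (SE, n = 3 per group; limma adjusted p = 0.0745), which turned to -0.0034 with no scaling. That of CUE1 was 0.04 ± 0.06 (SE, n = 3 per group; limma adjusted p = 0.772; 95% interval -0.10 to 0.19), and it was -0.24 with no scaling. Within arrays the change of UBC7 exceeded that of CUE1 by 0.24 on the log2 scale, and in this difference all 3 OGT2468 arrays were above all 3 DMSO ones (exact p = 0.1, two-sided, again the smallest possible; 0.2 when adjusted over the 4 pairs). The remaining pair, HRD1 and HRD3, differed in change by 0.14 (exact p = 0.3; adjusted, 0.4).

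ULI1 encodes a protein of unknown molecular function whose gene is induced by ER stress. Its normalized intensity was 126.7, 140.7 and 134 in DMSO and 373.8, 335 and 434.8 in OGT2468. Every OGT2468 value was far above every DMSO value. The rise was 1.40 ± 0.11 on the log2 scale (SE, n = 3 per group; limma adjusted p = 0.00315; 95% interval 1.14 to 1.66), larger than that of 99.8% of named genes. Its change without any 1 array lay between 1.31 and 1.49, and the call held in all 6 of those fits (adjusted p between 0.00943 and 0.0294). With no scaling the change was 1.16. Without ULI1 the median change of the 9 degradation genes was 0.26.

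**Figure D2:**
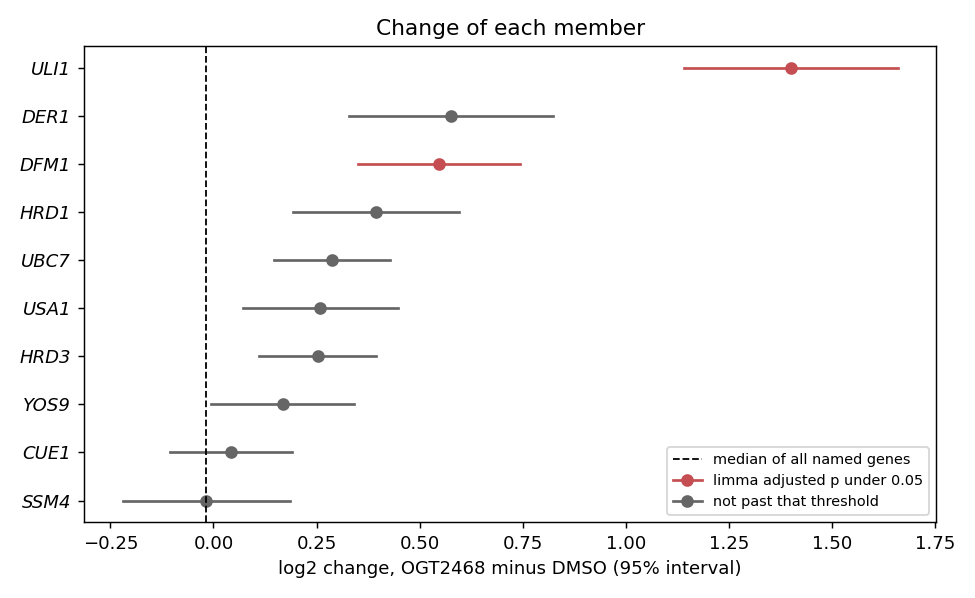
Change of each member as the log2 difference of OGT2468 minus DMSO (point) with its 95% interval from limma (line), red where the adjusted p was under 0.05. The dashed line is the median of all named genes, -0.02. ULI1 stands at 1.40, DER1 and DFM1 at 0.58 and 0.55, and CUE1 and SSM4 lie near 0.

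The size of these changes depended on how the arrays were set against each other. In the intensities as deposited, DMSO replicate 3 was the brightest array, and the groups stayed apart for 2 members, DER1 and ULI1 (1.63% of named genes were higher without overlap on that scale). DER1 was 929.7, 659.6 and 940.4 in DMSO and 1170.3, 992.8 and 949.8 in OGT2468 as deposited. With no scaling the median change was 0.00 for the members and -0.27 for all named genes, so the members' median exceeded that of all named genes by 0.27. With quantile normalization it exceeded it by 0.29.

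**Figure D3:**
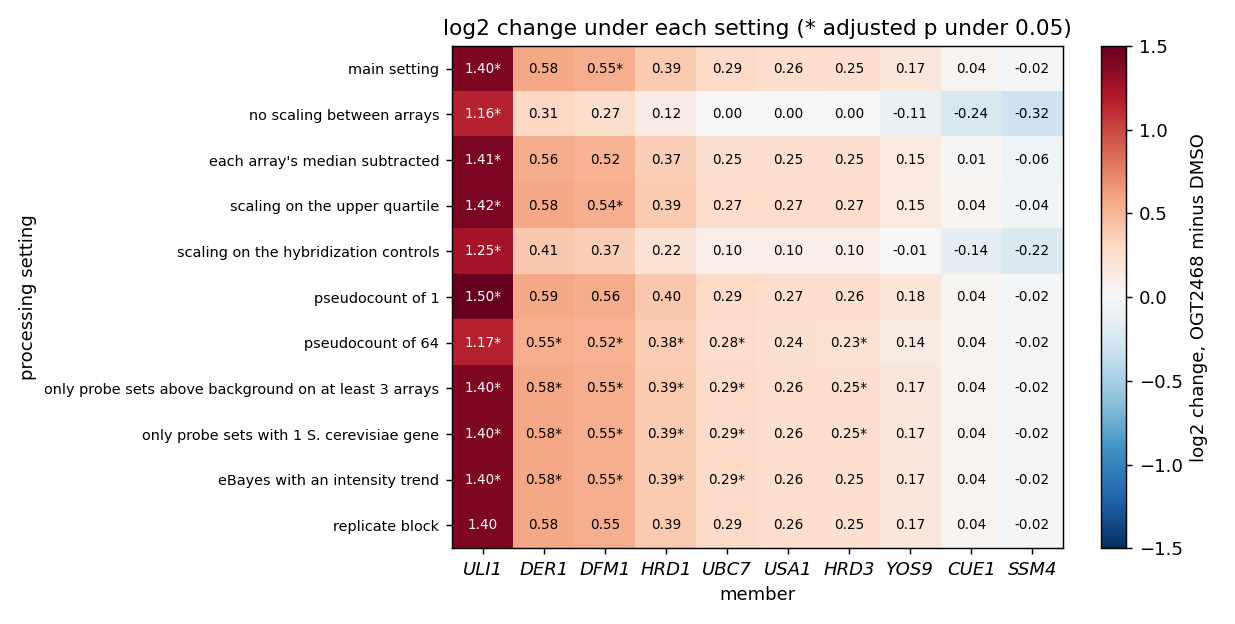
Log2 change of each member (columns, ordered by change) under the main setting and 10 other processing settings (rows), with an asterisk where the adjusted p was under 0.05. ULI1 carries an asterisk in all but the replicate block. The 4 highest values in each row belong to ULI1, DER1, DFM1 and HRD1 and the 2 lowest to CUE1 and SSM4. The values of all members are lower with control scaling and with no scaling than in the main setting.

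The genes flanking each member in the gene order of the R64 assembly gave a local comparison, chosen after values were seen. Of 20 flanking protein-coding genes 18 were measured, and none passed (limma, lowest adjusted p = 0.118), with log2 changes between -0.26 and 0.08. HIS2 and ECO1, on either side of ULI1, had log2 changes of 0.01 and -0.06. STE14 and RRP17, on either side of DFM1, had -0.24 and -0.16.

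Other genes of the pathway were covered by 2 lists, that of the proteasome and a mixed one with the Cdc48 machinery, glycan-trimming mannosidases, ubiquitin-conjugating enzymes and the Asi ligase. Of the 24 genes on the mixed list, none rose or fell over all probe sets tested (limma), and 2 had an unadjusted p under 0.05, both higher. Their median log2 change was -0.01 and their range was -0.13 to 0.28. The 2 with the lowest p were UBX2 (0.21 ± 0.07, SE; limma adjusted p = 0.195), which anchors Cdc48 at the ER membrane, and NPL4 (0.17 ± 0.06, SE; limma adjusted p = 0.267), a cofactor of Cdc48. CDC48 itself had normalized intensities of 6973, 6661 and 7470.7 in DMSO and 7261.7, 7097.6 and 7828.3 in OGT2468, which overlapped. Its log2 change was 0.07 ± 0.07 (SE; limma adjusted p = 0.686), and that of its other cofactor gene, UFD1, was 0.04 ± 0.09 (SE; limma adjusted p = 0.853). Among 34 genes of the proteasome and its transcription factor RPN4, none passed in limma either. At an unadjusted p under 0.05, 1 was higher, the core subunit gene PRE8 (0.15 ± 0.06, SE), and 1 lower, the lid subunit gene RPN8 (-0.21 ± 0.08, SE). The proteasome list had a median log2 change of 0.02. The same held in all 16 alternatives, in which no gene of these 2 lists was called.

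Upstream, in the list of the Kar2 chaperone cycle and the Ire1-Hac1 branch, 6 of 9 measured genes rose and none fell, with a median log2 change of 0.51. HAC1 stood at 4248, 4368.6 and 4067.3 in DMSO and at 5764.4, 5678.7 and 6389.2 in OGT2468 (normalized intensity), a rise of 0.49 ± 0.07 (SE; limma adjusted p = 0.0288). One probe set gave its level, and whether it was spliced was not tested. IRE1 had a log2 change of -0.06 ± 0.08 (SE, limma adjusted p = 0.768). KAR2, the chief ER chaperone gene, had one of 0.18 ± 0.05 (SE, limma adjusted p = 0.163) and did not pass. Its 3 OGT2468 arrays were all above its 3 DMSO arrays, a pattern seen in 15.5% of named genes. The nucleotide exchange factor genes SIL1 (1.19) and LHS1 (0.95) and the J-domain protein genes JEM1 (0.73), SCJ1 (0.56) and ERJ5 (0.51) also rose. JEM1 and SCJ1 are known to keep degradation substrates soluble together with Kar2. The count of 6 fell to 2 without any 1 array and to 0 with no scaling.

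In the list of ER disulfide bond formation 3 of 7 measured genes rose and none fell, with a median log2 change of 0.26. These were the oxidase gene ERO1 (1.21 ± 0.06, SE; limma adjusted p = 0.00154) and the disulfide isomerase genes MPD1 (1.01 ± 0.06; 0.00161) and EUG1 (0.75 ± 0.07; 0.00547). The count was 3 without any 1 array and 1 with no scaling. PDI1, which also takes part in degradation, had a log2 change of 0.26 ± 0.06 (limma adjusted p = 0.103). The lists were not tested against each other.

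**Figure D4:**
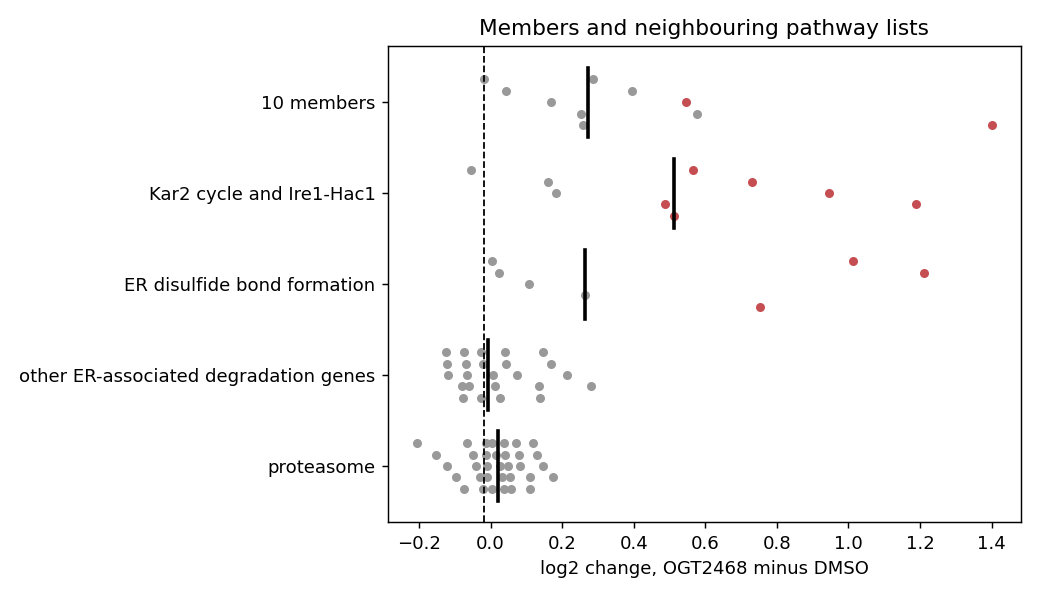
Log2 change, OGT2468 minus DMSO, of each gene in the 10 members and in 4 pathway lists, 1 point per gene, red where the limma adjusted p was under 0.05, with a bar at each list's median and a dashed line at the median of all named genes. The other degradation genes and the proteasome genes centre on -0.01 and 0.02, the Kar2 and Ire1-Hac1 list on 0.51.

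The genes whose level followed the called members most closely over the 6 arrays were found among 5157 named genes above background on every array, as a description. For DFM1 they were ERG27, DFG5 and YET2 (Pearson r = 0.997, 0.996 and 0.996), with log2 changes of 0.24, 0.56 and 1.09. For ULI1 they were YOX1, ARI1 and SVS1 (r = 0.9998, 0.9998 and 0.9976), with log2 changes of 0.71, 0.69 and 0.45. These coefficients mostly reflect the difference between the 2 groups of arrays.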

How the data were processed

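The labels' protocols describe biotin-labelled total RNA on Affymetrix arrays. The deposited table gives 1 linear intensity per probe set and array, and the submitters' processing notes name GCRMA. The deposited intensities were not on the log2 scale GCRMA returns, and their summary and background steps are not given in the sources used here. Of 10928 probe sets, 1747 annotated to another species and 213 controls were left out. The other 8968 held 5498 with 1 S. cerevisiae gene and 3470 with no gene name, whose species was not determined. Of the 8968, 5557 were above background on at least 3 arrays. All 8968 were quantile normalized, 16 was added and log2 taken. Names came from the platform annotation and an R64 gene table, and all 84 listed genes matched. A gene with several probe sets was given by the brightest. Background on an array was set at percentile 98 of its other-species values. The test was limma's (version 3.58.1, lmFit then eBayes, under R 4.3.3), with no covariate and Benjamini-Hochberg adjustment over all 8968 at 0.05. Groups and replicate numbers came from the sample titles.

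Members, lists and settings were chosen with earlier results of these data known. Named were all 10 members, list genes that passed or else the 2 with the lowest p, 5 fixed genes (KAR2, HAC1, IRE1, CDC48 and UFD1) and the 3 genes most like each called member. PDI1 and the flanking genes were named after their values were seen, and the differences between pairs of members were added then too. On data simulated from these 8968 probe sets with 200 changed, 70.0% of the 2-fold changes were called and 48.0% of the 1.41-fold ones, while 7.6% of the calls fell on unchanged probe sets. The precision is limited by the number of arrays, 3 per group. The promoter letters planned for searching were not analysed here.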

Additional observations from a re-analysis of the deposited data

How the results depend on the processing

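Over 16 alternatives, 126 of 160 values of single members kept their direction and their side of the threshold, 16 came to pass, 12 no longer passed and 6 changed sign. The number of members that rose, 2 in the main setting, was 1 with a pseudocount of 1, with medians subtracted, with control scaling and with no scaling. It was 6 with a pseudocount of 64, 6 with probe sets above background on at least 3 arrays, 6 with named probe sets alone, and 5 with an intensity trend. Without 1 array it was 1 or 2. No member fell in any of them. The cause of these shifts was not tested. The changes that turned sign were those of UBC7 (-0.0034), CUE1 (-0.24) and YOS9 (-0.11) with no scaling, CUE1 (-0.14) and YOS9 (-0.011) with control scaling, and SSM4, which lay between -0.0835 and 0.0504 without 1 array.

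Over all probe sets 164 rose and 68 fell. The counts were 22 and 44 with no scaling (33.3% higher against 70.7%), 101 and 41 with medians subtracted, 47 and 56 with control scaling (45.6% higher), 292 and 187 with a pseudocount of 64 (61.0% higher), 350 and 227 with the background filter (60.7%), 314 and 212 with named probe sets alone (59.7%), 335 and 221 with the trend (60.3%), 61 to 91 and 28 to 42 without 1 array. With a pseudocount of 1 they were 110 and 49. Over all named genes the median change was -0.27 without scaling and -0.18 under control scaling. The Kar2 and Ire1-Hac1 count of 6 was 0 with no scaling, 3 with medians subtracted, 2 with control scaling, 3 with a pseudocount of 1 and 2 without any 1 array. The disulfide count of 3 was 1 with no scaling.

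Arrays that share a replicate number deviated together weakly (r = 0.194, 0.14 and 0.059 over named genes), so the numbers were not taken as pairs. Each array correlated best with its own number, a hint from the data and not from the design. With the replicate block 0 members rose (ULI1 adjusted p = 0.0527, DFM1 0.0835), 27 probe sets rose and 14 fell, and 1 gene of the Kar2 and Ire1-Hac1 list rose.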
